A study of Saccharomyces cerevisiae with 8 samples.

Results

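The effect of extra *AZF1* and the effect of *AZF1* deletion were set against each other, gene by gene, in *Saccharomyces cerevisiae* cells that ferment xylose. For each gene the quantity described is the gain effect (*AZF1* MoBY minus MoBY control) minus the loss effect (*azf1Δ* minus WT), taken on group means of log2 RPKM. RPKM are read counts scaled to gene length and to the mapped reads of a library. All 8 libraries of the series enter this contrast. Of the 6328 genes in the table, 6105 reached 1 RPKM in at least 2 libraries and were tested. After *AZF1* itself, its neighbor *CEX1*, the marker genes *kanR* and *LEU2* and 405 ORFs without a RefSeq entry were left out, 5696 genes are described.

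The strain was Y128, which carries engineered genes for xylose use and was evolved to ferment xylose. *AZF1* MoBY cells carried *AZF1* with its own flanking sequence on a MoBY 2.0 plasmid, and MoBY control cells carried the plasmid without an insert, both under 200 mg/L G418. The *azf1Δ* cells had *AZF1* replaced with a *KanMX* cassette and WT cells had no alteration at *AZF1*, and both were grown without plasmid or G418. All 4 groups grew without oxygen on 2% xylose to the exponential phase, with 2 libraries each, lettered A and B, from cultures collected on different days. The labels name Y128 for every group, whereas the methods of the study name a Y128 derivative from which the resistance marker had been removed, and how many clones stand behind each group is not given in the sources used here. The arms share no library, but the gain arm was measured with plasmid and G418 and the loss arm without them, so this background and the arm cannot be told apart.

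Azf1 is a zinc finger transcription factor of budding yeast. It is known to act on different genes in different carbon sources, among them the G1 cyclin gene *CLN3* in glucose and cell wall genes in nonfermentable carbon. Yeast cells adjust carbon flow through glucose repressors such as Mig1 and Mig3, the hexose transporter corepressor Mth1, and Hap4, the regulatory subunit of the complex that activates respiratory genes. Gcn4 is the activator of amino acid biosynthesis genes. A regulator that acts on a gene in both arms would move it in opposite directions on gain and on loss, while a gene that responds to 1 arm alone would move in that arm only, and the contrast counts both kinds.

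*AZF1* followed the labels, at 74.0 and 73.5 RPKM in *AZF1* MoBY, against 13.3 and 14.3 RPKM in MoBY control, and at 0.0501 and 0.12 RPKM in *azf1Δ*, against 13.2 and 11.6 RPKM in WT. The step between low values implied 6190000 to 7140000 mapped reads per library. Libraries A and B of a group differed by a median of 0.12 (*AZF1* MoBY) to 0.21 (MoBY control) in log2 RPKM. In RNA from whole cultures, fewer cells that express a gene and less RNA per cell cannot be told apart.

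The gain and loss effects differed for 853 of 6105 genes tested (14%, limma, adjusted p under 0.05). The difference was more positive for 449 (7.35%) and more negative for 404 (6.62%). Taken singly, the gain effect was called for 1375 genes (22.5%, with 11.9% higher and 10.6% lower) and the loss effect for 108 (1.77%, with 0.77% higher and 0.999% lower). Among the 778 called genes that are described here, gain had the larger absolute effect for 665, and 640 were called in the gain arm and not in the loss arm, against 27 called in the loss arm only. Most called differences thus followed the gain arm, in which the median absolute effect over the described genes was 0.26, against 0.145 in the loss arm.

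A gene was termed opposed where its difference was called and both *AZF1* MoBY libraries lay on one side of both MoBY control libraries, while both *azf1Δ* libraries lay on the other side of both WT libraries. Over all genes tested this held for 452 (7.4%), 196 of them higher in *AZF1* MoBY (3.21%) and 256 lower (4.19%). Of the described genes 399 were opposed. The 253 that were lower in *AZF1* MoBY and higher in *azf1Δ* had median effects of -0.47 for gain and 0.26 for loss, and the 146 that were higher in *AZF1* MoBY and lower in *azf1Δ* had medians of 0.72 for gain and -0.33 for loss. Both arms were called, with opposite sign, for 24 genes (16 lower and 8 higher with gain). Of the other opposed genes, 293 were called in the gain arm only, 12 in the loss arm only and 70 in neither arm. In MoBY control against WT 222 of the 399 were called, 176 of them with the sign of their gain effect. That comparison called 31.2% of all genes tested, and the part of plasmid and G418 in the opposed genes was not tested. Without any test, the libraries of the gain pair did not overlap for 59.1% of the 5696 genes, nor those of the loss pair for 47.2%. A pair without overlap is thus no call of its arm. The groups stood apart in opposite directions for 868 of 5696 genes (15.2%) and in the same direction for 793 (13.9%). The called difference picks out genes of the first kind by construction, as the scatter of gain against loss shows.

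**Figure D1:**
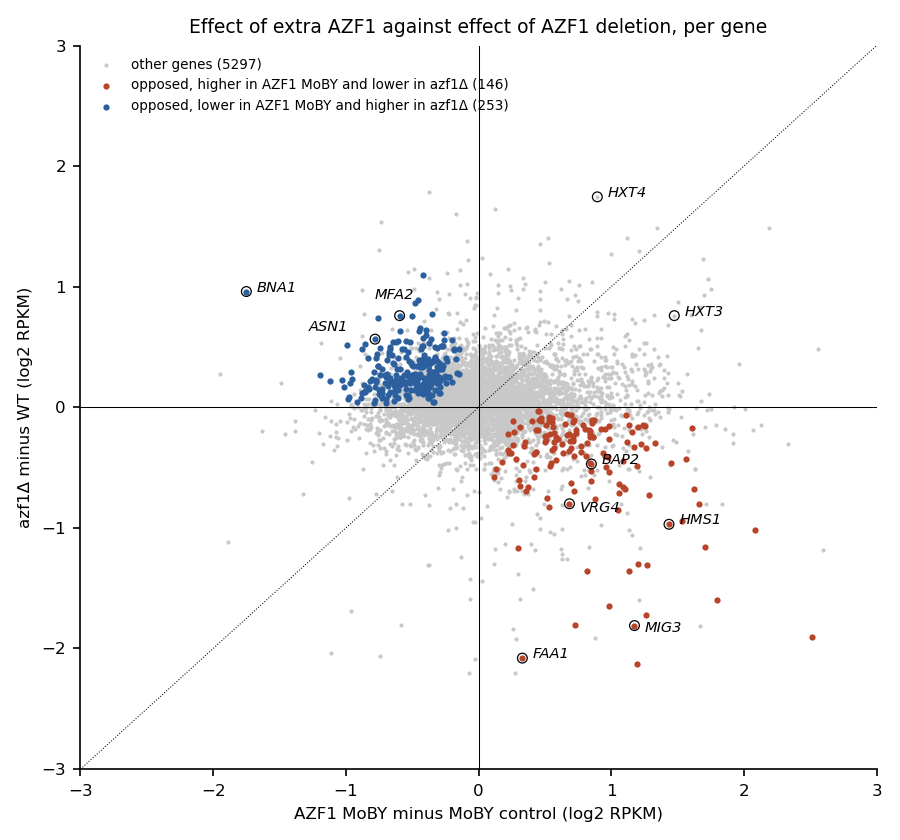
Each point is 1 of 5696 genes, with the *AZF1* MoBY minus MoBY control difference on the x axis and the *azf1Δ* minus WT difference on the y axis (log2 RPKM). The 253 blue genes were lower with gain and higher with loss, the 146 red genes the reverse, and the dotted line marks equal effects. Circled points carry a name and 1 gene lies outside the axes. *HXT3* and *HXT4* lie in the upper right, where both effects are positive.

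The counts moved with single libraries and with scaling. Leaving out *AZF1* MoBY replicate B gave 305 called differences and 162 opposed genes, and leaving out MoBY control replicate A gave 1087 and 511. The other sets that moved a count by over 1.5 times were those without *AZF1* MoBY replicate A (432 and 245), *azf1Δ* replicate B (433 and 248), *azf1Δ* replicate A (528 called) and WT replicate B (500 called). The loss effect was called for 3 genes without WT replicate B, 19 without *azf1Δ* replicate B, 26 without WT replicate A and 51 without either *AZF1* MoBY library or *azf1Δ* replicate A, so statements that both arms were called rest on all 8 libraries and on the variance trend, without which 6 loss effects were called. Median-ratio rescaling gave 845 called genes, 67.2% of them more positive with gain, against 52.6% as deposited. Without the variance trend 483 differences were called, and the counts of called members given below became 35 for ribosomal proteins, 10 for amino acid biosynthesis, 7 for chaperones, 6 each for the cell wall and G1 lists, 5 each for the respiratory chain and tRNA synthetases, 4 each for glycolysis and the purine list, and 3 each for the TCA cycle, reserve carbohydrates, sugar sensing, the pentose phosphate pathway and sulfate assimilation. Among genes named below, the calls of *ACO1*, *ATP1*, *ATP18*, *OLI1*, *LYS20*, *HIS6*, *TNA1*, *HXT3*, *TUP1*, *GSY1*, *PIG1*, *WHI5*, *MNN4*, *IME4*, *TAL1* and *GPP2* were also lost without that trend, and rescaling ended those of *PIG1*, *OPT2*, *TNA1*, *WHI5*, *TAL1* and *MSN2*.

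The tricarboxylic acid (TCA) cycle, which oxidizes acetyl-CoA in mitochondria, had the largest share of opposed members among the 50 lists examined. Of its 13 members, 9 had a called difference, all 9 more negative with gain, and all 9 were opposed. The list's median was -0.35 for gain and 0.32 for loss, beside 0.005 and 0.045 over all genes tested. In the arms taken singly, 6 members fell in *AZF1* MoBY and 1 rose in *azf1Δ*. *ACO1*, an aconitase, which turns citrate into isocitrate, stood at 142 and 124 RPKM in *AZF1* MoBY, against 204 and 161 RPKM in MoBY control, and at 311 and 326 RPKM in *azf1Δ*, against 252 and 234 RPKM in WT. The groups of each pair did not overlap, though the loss effect was not called, and the effects differed by -0.84 ± 0.17 (SE, limma, adjusted p = 0.0158). The *ACO1* call was lost without *AZF1* MoBY, *azf1Δ* or WT replicate B (-1.01 to -0.67 over the 8 sets with 1 library left out).

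*LPD1*, the lipoamide dehydrogenase shared by the pyruvate and 2-oxoglutarate dehydrogenase complexes, stood at 69.1 and 64.4 RPKM in *AZF1* MoBY, against 93.1 and 107 RPKM in MoBY control, and at 111 and 115 RPKM in *azf1Δ*, against 93.7 and 99.0 RPKM in WT. Its *AZF1* MoBY values were the lowest of all 8 libraries, and the effects differed by -0.81 ± 0.13 (SE, limma, adjusted p = 0.0071). *IDH1*, a subunit of NAD-dependent isocitrate dehydrogenase, differed by -0.76 ± 0.14 (SE, limma, adjusted p = 0.0111), mostly through the loss arm, where it rose, at 229 and 228 RPKM in *azf1Δ*, against 168 and 144 RPKM in WT, and the call was lost without *AZF1* MoBY replicate B (-0.87 to -0.65 over the 8 sets). *CIT1*, citrate synthase (-0.73), *LSC1*, a succinyl-CoA ligase subunit (-0.67), *IDH2* (-0.63), *FUM1*, fumarase (-0.62) and *KGD2*, a 2-oxoglutarate dehydrogenase subunit (-0.61) were further called members, given by their log2 differences. The list's count of 9 became 1 without *AZF1* MoBY replicate B, 2 without *azf1Δ* replicate B, 4 without WT replicate B and 5 without *azf1Δ* replicate A.

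The respiratory chain and ATP synthase, which use the electrons that the TCA cycle delivers, moved the same way, with a smaller median effect in the gain arm. Of 41 nuclear genes, 13 had a called difference (31.7%), all more negative with gain, and 9 were opposed. Opposite signs of the effects were found for 31 of the 41. In the arms taken singly, 8 members fell and 2 rose in *AZF1* MoBY, and 3 rose in *azf1Δ*. The median loss effect was 0.41 and the median gain effect -0.14. That gain median rested on single libraries, being 0.015 without *AZF1* MoBY replicate B and -0.33 when the other *AZF1* MoBY library was left out. All called members except *COX5A*, *COX8* and *SDH2* encode ATP synthase subunits or its inhibitor, such as *ATP1*, the alpha subunit of the catalytic core. *ATP1* stood at 231 and 191 RPKM in *AZF1* MoBY, against 259.6 and 300.2 RPKM in MoBY control, and at 508 and 516 RPKM in *azf1Δ*, against 396 and 365 RPKM in WT, without overlap in either pair, and differed by -0.84 ± 0.16 (SE, limma, adjusted p = 0.0117). Without *AZF1* MoBY replicate B that call was lost (-0.98 to -0.71 over the 8 sets). The *ATP1* loss effect was not called.

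*COX5A*, an aerobic subunit of cytochrome c oxidase, stood at 21.4 and 21.9 RPKM in *AZF1* MoBY, against 29.4 and 28.4 RPKM in MoBY control, and at 71.0 and 72.5 RPKM in *azf1Δ*, against 41.9 and 55.3 RPKM in WT. Both pairs were apart, with the highest values in *azf1Δ*, though the loss effect was not called, and the effects differed by -1.00 ± 0.18 (SE, limma, adjusted p = 0.0106). *COX8*, another subunit of that enzyme, rose on loss, at 202 and 172 RPKM in *azf1Δ*, against 107 and 105 RPKM in WT, whereas its *AZF1* MoBY and MoBY control libraries overlapped, and it differed by -1.14 ± 0.21 (SE, limma, adjusted p = 0.0117). *SDH2*, the iron-sulfur subunit of succinate dehydrogenase, was named after its values had been seen as a gene called in both arms. It stood at 108 and 97.7 RPKM in *AZF1* MoBY, against 119 and 136 RPKM in MoBY control, and at 385 and 407 RPKM in *azf1Δ*, against 278 and 286 RPKM in WT, and differed by -0.80 ± 0.13 (SE, limma, adjusted p = 0.00726). For *ATP18*, a small ATP synthase subunit, the difference was -1.28 ± 0.31 (SE, limma, adjusted p = 0.0285) and the gain pair overlapped. That call was lost without *AZF1* MoBY replicate B, either *azf1Δ* library or WT replicate B (-1.57 to -0.99 over the 8 sets).

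Without *AZF1* MoBY replicate B 3 respiratory members were called, without *azf1Δ* replicate A 7, without *azf1Δ* or WT replicate B 8 each, and without *AZF1* MoBY replicate A 20. In MoBY control against WT, a comparison in which 31.2% of all genes were called, 31 of the 41 fell, 1 rose, and the median was -0.85. The part of this lower level of MoBY control in the gain effects was not tested.

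*HAP4*, the activator of respiratory genes named above, stood at 23.1 and 20.3 RPKM in *AZF1* MoBY, against 31.8 and 26.2 RPKM in MoBY control, and at 71.5 and 70.5 RPKM in *azf1Δ*, against 47.8 and 52.3 RPKM in WT. It was thus lowest in *AZF1* MoBY and highest in *azf1Δ*, though its loss effect was not called. Its effects differed by -0.92 ± 0.17 (SE, limma, adjusted p = 0.0113), a call lost without *AZF1* MoBY replicate B (-1.06 to -0.78 over the 8 sets). Of the other regulators of nonfermentable carbon use, *CAT8*, the activator of gluconeogenic genes, had effects of -0.17 for gain and 0.45 for loss, with a difference of -0.61 ± 0.21 (SE, limma, adjusted p = 0.0894). *ADR1*, an activator of ethanol and fatty acid use, had 0.58 for gain and 0.13 for loss and differed by 0.45 ± 0.15 (SE, limma, adjusted p = 0.079). *SIP4*, another gluconeogenic activator, had 0.90 for gain and 0.24 for loss and differed by 0.66 ± 0.31 (SE, limma, adjusted p = 0.192). None of these 3 differences passed the threshold.

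The transcripts made from mitochondrial DNA were looked at after their values had been seen among the opposed genes, as libraries were depleted of rRNA and not selected for poly(A) tails. Of the 8 protein genes, 5 had a called difference and 4 were opposed, all more negative with gain, and all 8 had a negative gain effect and a positive loss effect. The median was -0.38 for gain and 0.60 for loss. *ATP6*, an ATP synthase subunit, stood at 139 and 123 RPKM in *AZF1* MoBY, against 193 and 172 RPKM in MoBY control, and at 234 and 298 RPKM in *azf1Δ*, against 155 and 135 RPKM in WT. Both pairs were apart and both arms were called, with a difference of -1.35 ± 0.19 (SE, limma, adjusted p = 0.00435). *COX1*, the catalytic subunit of cytochrome c oxidase, differed by -1.10 ± 0.15 (SE, limma, adjusted p = 0.00375), and its reads are uncertain because intron-encoded genes overlap it. *COX2* and *COX3*, its partner subunits, differed by -1.13 ± 0.19 and -0.97 ± 0.15 (SE, limma, adjusted p = 0.00831 and 0.00605). *OLI1*, the ATP synthase ring subunit, rose on loss, at 357 and 443 RPKM in *azf1Δ*, against 193 and 236 RPKM in WT, and differed by -1.20 ± 0.23 (SE, limma, adjusted p = 0.0118), a call lost without *AZF1* MoBY replicate B (-1.36 to -1.04 over the 8 sets). *COB*, *ATP8* and *VAR1* were not called (limma, adjusted p from 0.145 to 0.496). In MoBY control against WT 2 of the 8 were called, *COX1* at 0.44 and *OLI1* at -0.795. The median there was -0.24, beside -0.85 for the nuclear list, and *ATP6* stood at 0.33 without a call.

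Nuclear genes for mitochondrial ribosomal proteins, which translate these transcripts, had 6 called members of 72 (8.33%), a count that was 13 without MoBY control replicate A, 0 to 3 with any other library left out, and 1 without the variance trend. Over all genes tested 14% were called, so this list did not exceed that share. All 6 were opposed and lower with gain (8.33%, beside 7.4% opposed over all genes tested), led by *MRPL35* (log2 difference -0.97). The median over the list was -0.10 for gain and 0.14 for loss.

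**Figure D2:**
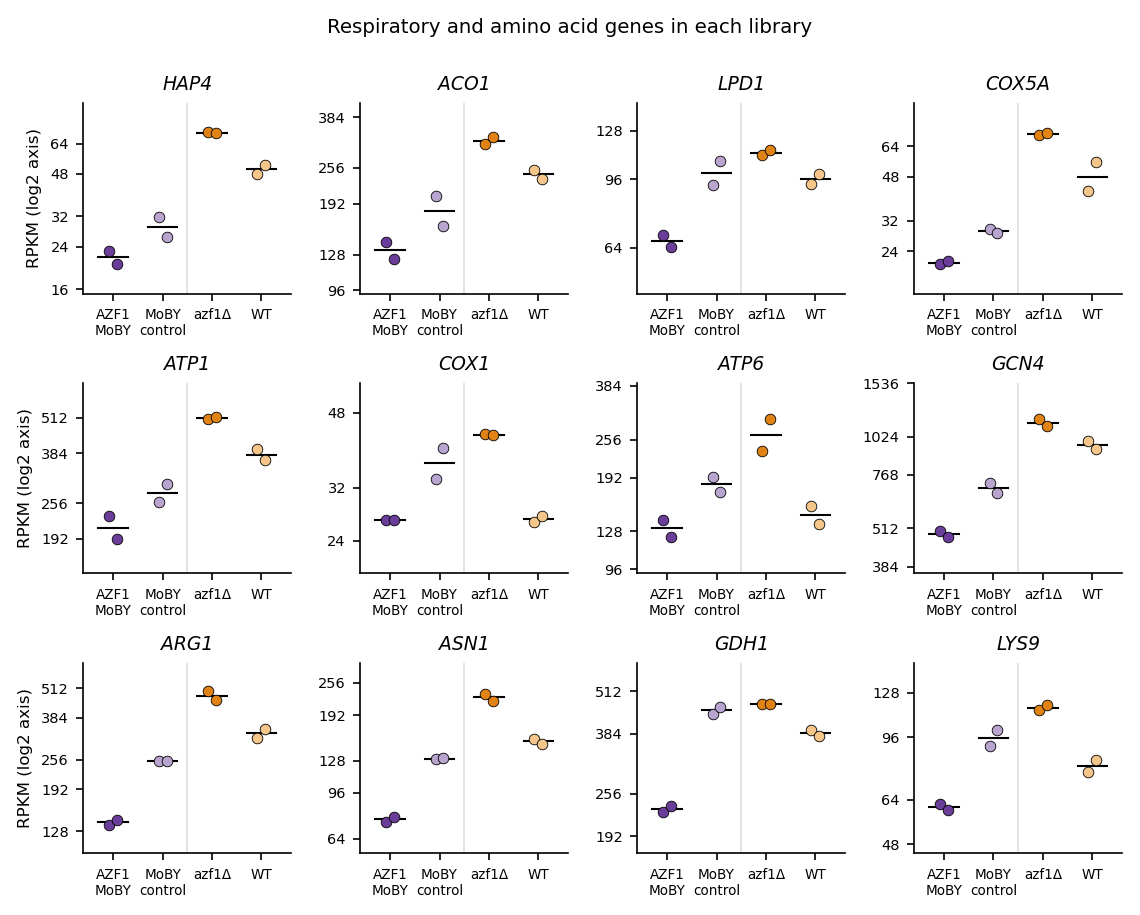
RPKM (log2 axis) of 12 genes in each library, by group from left to right: *AZF1* MoBY, MoBY control, *azf1Δ* and WT. Points are libraries, black lines are means of log2 values, and the vertical line divides the arms. In all 12 panels the *AZF1* MoBY points lie below both MoBY control points and the *azf1Δ* points above both WT points.

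Amino acid biosynthesis genes formed the largest opposed set in number after the ribosomal proteins. Of 66 members, 21 had a called difference (31.8%), 19 more negative and 2 more positive with gain, and 15 were opposed, all of them lower with gain. Their activator *GCN4* was among them. *GCN4* stood at 501 and 481 RPKM in *AZF1* MoBY, against 724 and 671 RPKM in MoBY control, and at 1168 and 1113 RPKM in *azf1Δ*, against 989 and 936 RPKM in WT, with no overlap in either pair, and differed by -0.75 ± 0.12 (SE, limma, adjusted p = 0.00628). The loss effect of *GCN4* was not called. Gcn4 is controlled at translation, so its mRNA level is not its activity.

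The 2 members with the largest negative differences were called in both arms. *ARG1*, argininosuccinate synthase, stood at 136 and 143 RPKM in *AZF1* MoBY, against 252 and 252 RPKM in MoBY control, and at 498 and 455 RPKM in *azf1Δ*, against 317 and 345 RPKM in WT. The *azf1Δ* libraries were highest and the *AZF1* MoBY libraries lowest of the 8, and the effects differed by -1.38 ± 0.12 (SE, limma, adjusted p = 0.000859). *ASN1*, an asparagine synthetase, stood at 74.0 and 77.7 RPKM in *AZF1* MoBY, against 129.8 and 131 RPKM in MoBY control, and at 232 and 218 RPKM in *azf1Δ*, against 155 and 149 RPKM in WT. Its order of groups was the same and its effects differed by -1.35 ± 0.11 (SE, limma, adjusted p = 0.000859). *GDH1*, the NADPH-dependent glutamate dehydrogenase that assimilates ammonium, stood at 226 and 236 RPKM in *AZF1* MoBY, against 439.6 and 461 RPKM in MoBY control, and at 471 and 471 RPKM in *azf1Δ*, against 393 and 377 RPKM in WT. It fell in *AZF1* MoBY, its loss effect of 0.29 was not called, and it differed by -1.26 ± 0.10 (SE, limma, adjusted p = 0.000859).

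The lysine pathway added several of the other opposed members. *LYS9*, saccharopine dehydrogenase, stood at 62.2 and 59.7 RPKM in *AZF1* MoBY, against 90.5 and 100.4 RPKM in MoBY control, and at 115 and 118 RPKM in *azf1Δ*, against 76.6 and 82.7 RPKM in WT, was called in both arms and differed by -1.19 ± 0.12 (SE, limma, adjusted p = 0.0017). *LYS20* and *LYS21*, homocitrate synthases whose near-identical sequences may share reads, were at log2 differences of -1.06 and -0.91, with *LYS12* at -0.57 and *LYS2* at -0.45. The *LYS20* call was kept only when *AZF1* MoBY or MoBY control replicate A was left out (-1.36 to -0.77 over the 8 sets). *ARG3* (-0.80) and *ARG8* (-0.60) of arginine synthesis, *ILV5* (-1.00) and *LEU1* (-0.60) of branched-chain synthesis and *ARO4* (-0.80) of aromatic synthesis were also opposed.

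The exceptions in direction were *HIS6*, a histidine pathway enzyme (1.92), and *GLY1*, threonine aldolase (0.61), neither of them opposed. The *HIS6* call was kept only when MoBY control replicate A or *azf1Δ* replicate A was left out (1.36 to 2.49 over the 8 sets). The list's median was -0.18 for gain and 0.08 for loss, and 5 members rose in *azf1Δ*. Its count of 21 became 10 without *AZF1* MoBY replicate B and 12 without *azf1Δ* replicate B, while the calls of *ARG1*, *ASN1*, *GDH1*, *LYS9* and *GCN4* held whichever library was left out.

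*ARO9* and *ARO10*, the aminotransferase and decarboxylase that turn aromatic amino acids into fusel products, were singled out after their values had been seen. *ARO9* stood at 41.6 and 33.6 RPKM in *AZF1* MoBY, against 14.6 and 12.8 RPKM in MoBY control, and at 6.19 and 7.21 RPKM in *azf1Δ*, against 9.06 and 9.38 RPKM in WT. *ARO10* stood at 59.3 and 58.1 RPKM in *AZF1* MoBY, against 26.7 and 24.6 RPKM in MoBY control, and at 17.3 and 14.3 RPKM in *azf1Δ*, against 21.3 and 22.9 RPKM in WT. Both were highest in *AZF1* MoBY and lowest in *azf1Δ* without overlap, though neither loss effect was called (limma, adjusted p = 0.214 and 0.095), with differences of 1.92 ± 0.22 and 1.69 ± 0.17 (SE, limma, adjusted p = 0.00225 and 0.00167).

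Amino acid permeases divided by direction. Of 19 permease and peptide transporter genes, 8 had a called difference (42.1%), 5 more positive and 3 more negative with gain, and 6 were opposed, 4 higher and 2 lower with gain. *BAP2*, which imports branched-chain amino acids, stood at 699 and 739 RPKM in *AZF1* MoBY, against 419 and 380.0 RPKM in MoBY control, and at 167 and 164 RPKM in *azf1Δ*, against 237 and 221 RPKM in WT. It was called in both arms and differed by 1.32 ± 0.12 (SE, limma, adjusted p = 0.00107). *CAN1*, the arginine permease (0.95), *LYP1*, the lysine permease (0.71), and *TAT1*, for tyrosine and other amino acids (0.70), were opposed in the same direction by their log2 differences. *DIP5*, the dicarboxylic amino acid permease, stood at 88.0 and 85.0 RPKM in *AZF1* MoBY, against 144 and 132 RPKM in MoBY control, and at 204 and 199 RPKM in *azf1Δ*, against 151 and 134 RPKM in WT. It moved against *BAP2* in both arms, was called in both and differed by -1.17 ± 0.12 (SE, limma, adjusted p = 0.0018). *OPT2*, an oligopeptide transporter, stood at 12.7 and 10.9 RPKM in *azf1Δ*, against 5.13 and 4.03 RPKM in WT, without overlap, and at 0.979 and 1.28 RPKM in *AZF1* MoBY, against 1.38 and 1.03 RPKM in MoBY control, with overlap, and differed by -1.46 ± 0.41 (SE, limma, adjusted p = 0.0493), a call kept only when MoBY control replicate B was left out (-1.67 to -1.25 over the 8 sets). The list's count was 5 without *AZF1* MoBY or *azf1Δ* replicate B.

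The kynurenine route makes NAD from tryptophan. In the list of this route and other NAD genes, 3 of 13 members had a called difference (23.1%), and all 3 were opposed and lower with gain. *BNA1*, which acts on 3-hydroxyanthranilate, had the most negative difference of the genes named here. It stood at 2.43 and 2.41 RPKM in *AZF1* MoBY, against 6.50 and 10.2 RPKM in MoBY control, and at 20.3 and 19.7 RPKM in *azf1Δ*, against 10.9 and 9.71 RPKM in WT. The *AZF1* MoBY libraries were lowest, the *azf1Δ* libraries highest, and the effects differed by -2.71 ± 0.31 (SE, limma, adjusted p = 0.00214). About 8.03 and 8.01 implied reads stood behind the *AZF1* MoBY values of *BNA1*, and its loss effect was not called. *BNA5*, kynureninase, stood at 19.2 and 14.9 RPKM in *AZF1* MoBY, against 24.1 and 23.8 RPKM in MoBY control, and at 35.0 and 38.1 RPKM in *azf1Δ*, against 21.1 and 22.2 RPKM in WT, was called in both arms and differed by -1.26 ± 0.19 (SE, limma, adjusted p = 0.00543). *TNA1*, the nicotinic acid importer, differed by -0.45 ± 0.12 (SE, limma, adjusted p = 0.045) and kept its call only when MoBY control replicate A was left out (-0.53 to -0.38 over the 8 sets). The other 10 members included *BNA2*, *BNA4* and *BNA7*, with log2 effects of -0.03, 0.19 and -0.34 for gain and 0.55, 0.38 and 0.30 for loss, none of them called. Without MoBY control replicate A the list's count was 6.

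Among genes of sugar sensing and repression, 5 of 21 had a called difference (23.8%), and 4 were opposed, 3 lower with gain and 1 higher. *MIG3*, a zinc finger repressor related to Mig1, was the 1 that was higher. It stood at 38.9 and 38.6 RPKM in *AZF1* MoBY, against 17.5 and 16.8 RPKM in MoBY control, and at 2.58 and 1.49 RPKM in *azf1Δ*, against 8.94 and 5.31 RPKM in WT. It was highest in *AZF1* MoBY and lowest in *azf1Δ*, was called in both arms, and differed by 2.99 ± 0.42 (SE, limma, adjusted p = 0.00436). The call held whichever library was left out (2.59 to 3.38 over the 8 sets). *MIG1*, the main glucose repressor gene, lay on the other side in both arms, at 13.4 and 14.7 RPKM in *AZF1* MoBY, against 21.9 and 22.5 RPKM in MoBY control, and at 22.2 and 22.2 RPKM in *azf1Δ*, against 19.3 and 18.9 RPKM in WT, and differed by -0.88 ± 0.15 (SE, limma, adjusted p = 0.00895). The *MIG1* loss effect was not called (limma, adjusted p = 0.412). *MTH1*, whose product keeps hexose transporter genes repressed, stood at 37.3 and 34.3 RPKM in *AZF1* MoBY, against 49.2 and 47.8 RPKM in MoBY control, and at 70.5 and 73.5 RPKM in *azf1Δ*, against 55.7 and 55.3 RPKM in WT. Its groups did not overlap, though its loss effect was not called, and it differed by -0.82 ± 0.12 (SE, limma, adjusted p = 0.00507). *TUP1*, the corepressor that Mig1 recruits, differed by -0.75 ± 0.16 (SE, limma, adjusted p = 0.02), a call kept only without a MoBY control library or WT replicate A (-0.90 to -0.59 over the 8 sets). Its loss effect was not called either. *MIG2*, another relative of *MIG1*, had effects of the same sign, 0.46 for gain and 0.81 for loss, and its difference of -0.35 ± 0.20 (SE, limma, adjusted p = 0.294) was not called. The list's count was 3 without either *AZF1* MoBY library, without either *azf1Δ* library or without WT replicate B. *HXK1*, a hexokinase known to be under glucose repression and counted with the glycolytic genes, was opposed, at 1160.1 and 1105 RPKM in *AZF1* MoBY, against 2288 and 2149.8 RPKM in MoBY control, and at 5149 and 5518 RPKM in *azf1Δ*, against 4973 and 4329.5 RPKM in WT, and differed by -1.17 ± 0.15 (SE, limma, adjusted p = 0.00324). The *HXK1* gain effect was called and its loss effect was not.

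The hexose transporters *HXT3* and *HXT4* did not oppose. *HXT4*, a high-affinity transporter, stood at 251 and 269 RPKM in *AZF1* MoBY, against 148 and 132 RPKM in MoBY control, and at 70.5 and 59.7 RPKM in *azf1Δ*, against 19.0 and 19.7 RPKM in WT. *HXT3*, a low-affinity transporter, stood at 1399 and 1509.7 RPKM in *AZF1* MoBY, against 534 and 512 RPKM in MoBY control, and at 28.1 and 22.6 RPKM in *azf1Δ*, against 15.6 and 14.2 RPKM in WT. Both rose in both arms, so *HXT4* had a more negative (-0.85 ± 0.15) and *HXT3* a more positive difference (0.72 ± 0.16, SE, limma, adjusted p = 0.00907 for *HXT4* and 0.0207 for *HXT3*), the *HXT3* call being lost without either *AZF1* MoBY library, *azf1Δ* replicate B or WT replicate A (0.56 to 0.87 over the 8 sets). In MoBY control against WT they were higher by 2.85 and 5.14. *HXT* genes are related in sequence, and reads may be shared.

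**Figure D3:**
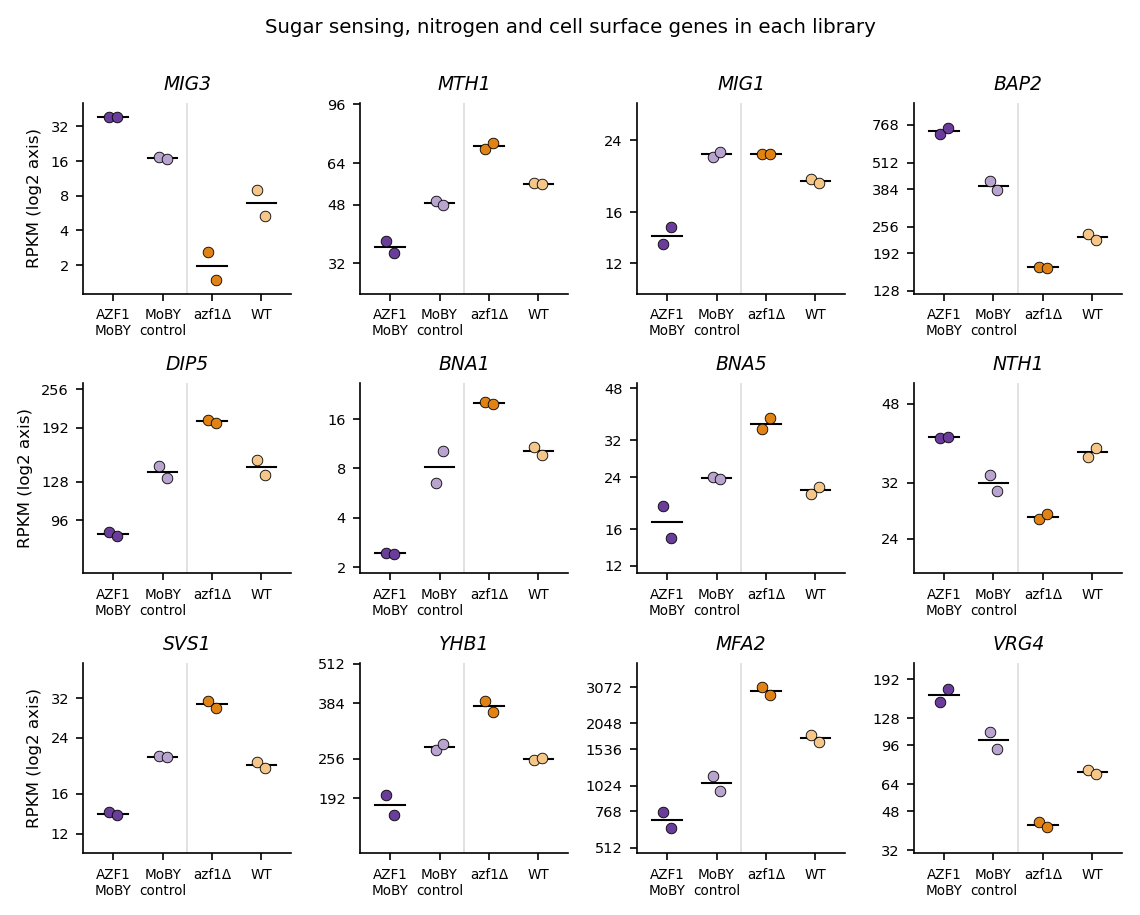
RPKM (log2 axis) of 12 opposed genes in each library, laid out by group as *AZF1* MoBY, MoBY control, *azf1Δ* and WT. *MIG3*, *BAP2*, *NTH1* and *VRG4* have *AZF1* MoBY points above MoBY control and *azf1Δ* points below WT. The other 8 genes have the reverse, with *BNA1* between 2.41 and 20.3 RPKM.

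Trehalose and glycogen are the reserve carbohydrates of yeast. Of 20 trehalose and glycogen genes 6 had a called difference (30%), and 5 were opposed. *NTH1*, neutral trehalase, which breaks trehalose down, stood at 40.2 and 40.5 RPKM in *AZF1* MoBY, against 33.4 and 30.7 RPKM in MoBY control, and at 26.5 and 27.3 RPKM in *azf1Δ*, against 36.5 and 38.3 RPKM in WT. It was higher with gain and lower with loss, called in both arms, and differed by 0.81 ± 0.13 (SE, limma, adjusted p = 0.00681). *GPH1*, glycogen phosphorylase, differed by -0.77 ± 0.13 (SE, limma, adjusted p = 0.00762) and rose on loss, at 153 and 177 RPKM in *azf1Δ*, against 115 and 117 RPKM in WT. *GSY1*, a glycogen synthase, differed by -0.72 ± 0.15 (SE, limma, adjusted p = 0.0177), a call lost without either *AZF1* MoBY library, *azf1Δ* replicate B or WT replicate A (-0.84 to -0.59 over the 8 sets). *PIG1*, a regulator of glycogen synthesis, differed by -0.74 ± 0.21 (SE, limma, adjusted p = 0.0498), a call kept only when MoBY control replicate B was left out (-0.87 to -0.62 over the 8 sets). The list's count was 2 without either *AZF1* MoBY library and 3 without either *azf1Δ* library.

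Genes of the stress response lay on both sides of the contrast. *MSN4* and *GIS1*, activators of stress and stationary phase genes, differed by -0.72 ± 0.14 and -0.77 ± 0.14 (SE, limma, adjusted p = 0.0117 and 0.0117). *GIS1* stood at 18.0 and 18.8 RPKM in *AZF1* MoBY, against 23.3 and 25.6 RPKM in MoBY control, and at 34.1 and 35.8 RPKM in *azf1Δ*, against 27.9 and 26.7 RPKM in WT. The *GIS1* call was lost without *azf1Δ* replicate B (-0.84 to -0.70) and that of *MSN4* without *AZF1* MoBY replicate B (-0.83 to -0.61 over the 8 sets). *MSN2*, which encodes a relative of Msn4, differed by -0.62 ± 0.16 (SE, limma, adjusted p = 0.036), a call kept only when MoBY control replicate B was left out (-0.67 to -0.56 over the 8 sets). All of *MSN4*, *GIS1* and *MSN2* were opposed and lower with gain, and the loss effect was called for none of them. *GRE1*, a hydrophilin gene induced by stress, stood at 22.6 and 29.9 RPKM in *AZF1* MoBY, against 7.46 and 9.51 RPKM in MoBY control, and at 1.38 and 2.23 RPKM in *azf1Δ*, against 2.53 and 3.12 RPKM in WT, and differed by 2.31 ± 0.40 (SE, limma, adjusted p = 0.00865). *SPI1*, a cell surface gene induced by stress, rose in *AZF1* MoBY and had a loss effect of 0.36, with a difference of 0.95 ± 0.13 (SE, limma, adjusted p = 0.00371). Of the 25 stress defense genes 6 had a called difference (24%), 3 in each direction, and the median difference was -0.06, or 0.03 after rescaling. The count was 3 without *AZF1* MoBY replicate B. Of 24 antioxidant enzyme genes 0 were called in limma (3 at an unadjusted p under 0.05), with 0 of 8 for the CCT chaperonin (1 unadjusted), and each list had at most 1 call with any library left out.

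Start, the commitment to a new cell cycle, is driven by G1 cyclins. Of 19 genes for G1 cyclins and Start, 9 had a called difference (47.4%), 8 more negative with gain and 1 more positive, and 4 were opposed. *CLN3*, the cyclin that triggers Start and a known Azf1 target in glucose, was the 1 gene in the positive direction and was named after its values had been seen. It stood at 76.6 and 76.6 RPKM in *AZF1* MoBY, against 52.3 and 51.6 RPKM in MoBY control, and at 26.7 and 28.4 RPKM in *azf1Δ*, against 33.1 and 28.8 RPKM in WT. Its rise in *AZF1* MoBY was called and its *azf1Δ* effect of -0.17 was not, and the effects differed by 0.73 ± 0.14 (SE, limma, adjusted p = 0.0117), a call lost without *AZF1* MoBY replicate B (0.63 to 0.83 over the 8 sets). *SWI4*, the DNA-binding subunit of the factor that acts after Cln3, stood at 7.01 and 6.82 RPKM in *AZF1* MoBY, against 9.38 and 12.6 RPKM in MoBY control, and at 15.0 and 16.1 RPKM in *azf1Δ*, against 11.8 and 11.2 RPKM in WT, and differed by -1.09 ± 0.23 (SE, limma, adjusted p = 0.0191), a call kept only without a MoBY control library (-1.30 to -0.88 over the 8 sets). *PCL1*, a G1 cyclin of the Pho85 kinase, stood at 13.1 and 12.2 RPKM in *AZF1* MoBY, against 21.3 and 20.0 RPKM in MoBY control, and at 29.4 and 27.3 RPKM in *azf1Δ*, against 23.3 and 23.8 RPKM in WT, and differed by -0.98 ± 0.15 (SE, limma, adjusted p = 0.00628). *CLN3*, *SWI4* and *PCL1* were opposed, though no loss effect was called in this list. *NRM1*, a repressor of G1 transcription, was not opposed, at 3.89 and 2.57 RPKM in *AZF1* MoBY, against 8.34 and 9.45 RPKM in MoBY control, and at 13.5 and 12.5 RPKM in *azf1Δ*, against 13.5 and 9.38 RPKM in WT with overlap. It differed by -1.69 ± 0.35 (SE, limma, adjusted p = 0.0164), a call lost without *AZF1* MoBY replicate B, either *azf1Δ* library or WT replicate B (-1.99 to -1.39 over the 8 sets). *WHI5*, the inhibitor that Cln3 acts on, fell in *AZF1* MoBY with a loss effect of -0.20, and its difference of -1.18 ± 0.32 (SE, limma, adjusted p = 0.0443) kept its call only when MoBY control replicate B was left out (-1.40 to -0.96 over the 8 sets). The list's count was 1 without *AZF1* MoBY replicate B, 2 without *azf1Δ* replicate A, 3 without *azf1Δ* replicate B or either WT library, and 5 without *AZF1* MoBY replicate A.

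Genes of the **a** mating type and the cell surface were among those called in both arms. *MFA2*, which encodes the a-factor pheromone, stood at 760.1 and 635 RPKM in *AZF1* MoBY, against 1144 and 962 RPKM in MoBY control, and at 3062 and 2817 RPKM in *azf1Δ*, against 1808 and 1664 RPKM in WT, and differed by -1.36 ± 0.18 (SE, limma, adjusted p = 0.00328). *STE2*, the receptor for alpha-factor, was chosen after its values had been seen and stood at 89.9 and 82.1 RPKM in *AZF1* MoBY, against 119 and 108 RPKM in MoBY control, and at 191 and 186 RPKM in *azf1Δ*, against 127 and 122 RPKM in WT, with a difference of -1.00 ± 0.12 (SE, limma, adjusted p = 0.00266). Over the mating list 5 of 28 members were called (17.9%, beside 14% over all genes tested), 3 of them opposed. The count of 5 was 2 without either *AZF1* MoBY library, either *azf1Δ* library or WT replicate B, after rescaling and without the variance trend. *SVS1*, a cell wall and vacuolar protein gene, stood at 14.0 and 13.7 RPKM in *AZF1* MoBY, against 21.1 and 20.8 RPKM in MoBY control, and at 31.3 and 29.9 RPKM in *azf1Δ*, against 20.1 and 19.3 RPKM in WT. MoBY control and WT lay between the other groups, and it differed by -1.23 ± 0.14 (SE, limma, adjusted p = 0.00248). *YHB1*, the flavohemoglobin that consumes nitric oxide, stood at 197 and 170.1 RPKM in *AZF1* MoBY, against 272 and 286 RPKM in MoBY control, and at 391 and 359.5 RPKM in *azf1Δ*, against 254 and 258 RPKM in WT, and differed by -1.16 ± 0.13 (SE, limma, adjusted p = 0.00212). *SFG1*, a transcription factor gene of filamentous growth, was called in the gain arm and not in the loss arm. Its effects differed by -1.51 ± 0.24 (SE, limma, adjusted p = 0.00628). *MNN4*, a regulator of mannan phosphorylation, and *NHP6A*, a chromatin protein gene whose model overlaps another, differed by -1.10 ± 0.25 and -1.17 ± 0.28 (SE, limma, adjusted p = 0.0247 and 0.0271), each keeping its call only without a MoBY control library (-1.36 to -0.84 and -1.39 to -0.94 over the 8 sets). Neither arm was called for *MNN4* or *NHP6A*, and *NHP6A* rested on 9.98 to 21.0 implied reads per library. *PAU21*, a seripauperin gene, differed by -1.50 ± 0.22 (SE, limma, adjusted p = 0.00503), but its copies are near-identical and its reads are uncertain. The *PAU21* gain effect was called and its loss effect was not. *PHO5*, the secreted acid phosphatase, chosen after its values had been seen, stood at 78.8 and 82.7 RPKM in *AZF1* MoBY, against 147 and 140.1 RPKM in MoBY control, and at 261 and 252 RPKM in *azf1Δ*, against 193 and 194 RPKM in WT, and differed by -1.24 ± 0.10 (SE, limma, adjusted p = 0.000859).

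In the reverse direction, *HMS1* and *YOR338W* were the genes of highest level among the 12 with the largest paired effects. *HMS1*, a transcription factor gene of pseudohyphal growth, stood at 44.3 and 40.5 RPKM in *AZF1* MoBY, against 14.9 and 16.4 RPKM in MoBY control, and at 0.642 and 0.742 RPKM in *azf1Δ*, against 1.11 and 1.65 RPKM in WT, and differed by 2.41 ± 0.33 (SE, limma, adjusted p = 0.00415). *YOR338W*, of unknown function, stood at 99.0 and 108 RPKM in *AZF1* MoBY, against 42.5 and 47.2 RPKM in MoBY control, and at 3.20 and 1.92 RPKM in *azf1Δ*, against 4.99 and 7.46 RPKM in WT, was called in both arms and differed by 2.51 ± 0.36 (SE, limma, adjusted p = 0.00487). *FRE5*, a ferric reductase gene (2.49), *IME4*, an mRNA methyltransferase gene whose antisense RNA shares its locus (2.63), *YKR015C* (2.99) and the Y22-3 annotation's GTK30F00220 (3.33) and GTK30H02330 (2.87) were at up to 11.3 RPKM in any library. *YKL107W*, *RRT12*, *YML100W-A* and *YML007C-A* completed the 12 and rested on few reads, with 0.818 to 3.02 implied reads in every *azf1Δ* library, so no fold is given for them. The calls of *FRE5*, *IME4*, *YKR015C* and GTK30H02330 were lost without *AZF1* MoBY replicate A or WT replicate B, among others, and *YKL107W* and *RRT12* lost theirs with most libraries left out. *HMS1* too had about 5.98 and 6.01 reads in *azf1Δ*, and its loss effect was not called. On the log2 scale MoBY control exceeded WT by 3.54 for *HMS1* and by 2.88 for *YOR338W*.

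Protein glycosylation and folding in the endoplasmic reticulum gave 2 further genes, chosen after their values had been seen. *VRG4*, the Golgi GDP-mannose transporter, stood at 152 and 174 RPKM in *AZF1* MoBY, against 111 and 92.4 RPKM in MoBY control, and at 42.8 and 40.8 RPKM in *azf1Δ*, against 74.5 and 71.0 RPKM in WT, was called in both arms and differed by 1.49 ± 0.15 (SE, limma, adjusted p = 0.0017). *ERO1*, the oxidase of disulfide bond formation, stood at 338 and 355 RPKM in *AZF1* MoBY, against 169 and 190.0 RPKM in MoBY control, and at 32.9 and 32.9 RPKM in *azf1Δ*, against 40.8 and 46.5 RPKM in WT, without overlap in either pair, and differed by 1.36 ± 0.14 (SE, limma, adjusted p = 0.00167). The loss effect of *ERO1* was not called. Of the lists that *VRG4* and *ERO1* belong to, 8 of 44 members were called for glycosylation (18.2%) and 3 of 20 for ER folding (15%), beside 14% over all genes tested. Those counts were 4 and 1 without either *AZF1* MoBY or either *azf1Δ* library. Rescaling gave 5 for glycosylation, and fitting without the trend gave 1 for ER folding.

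**Figure D4:**
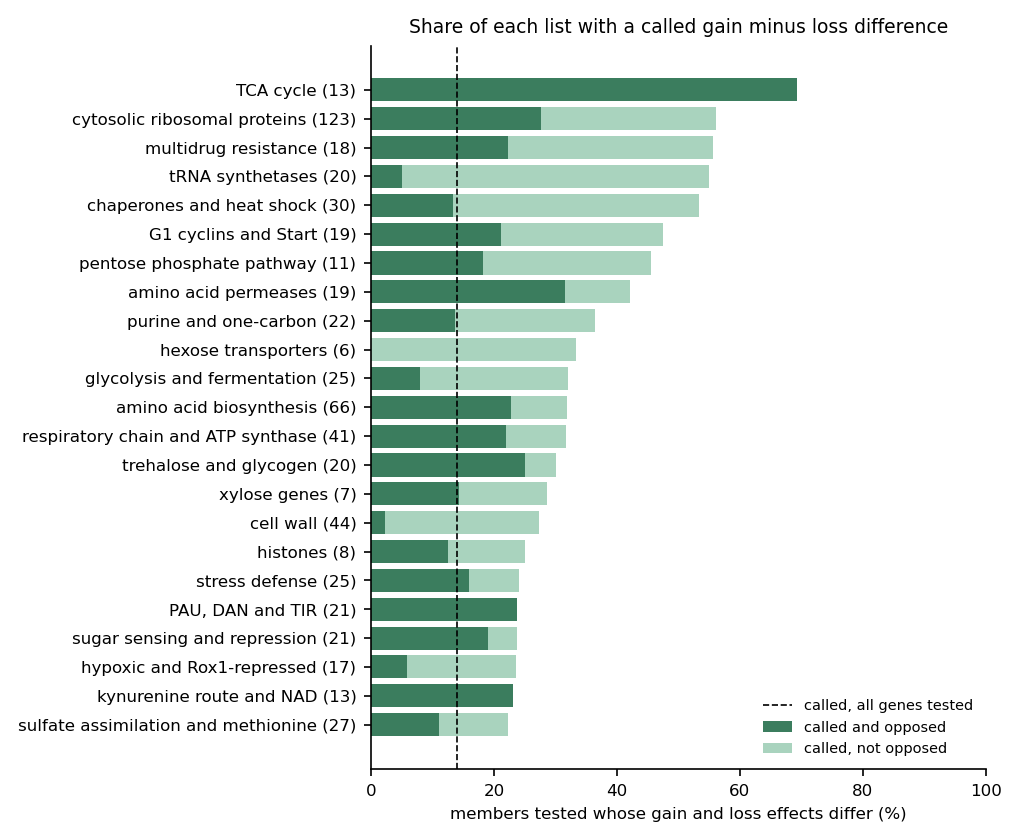
Share of each list's tested members (number in parentheses) whose gain and loss effects differed in limma, split into opposed members (dark) and other called members (light). The dashed line marks 14%, the share over all 6105 genes. All called members were opposed for the TCA cycle (9 of 13), the list of the kynurenine route and NAD, and the *PAU*, *DAN* and *TIR* genes, and 1 of 11 for tRNA synthetases.

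Other lists differed mainly through the gain arm. Of 123 cytosolic ribosomal protein genes, many of them near-identical pairs, 69 had a called difference (56.1%), all more negative with gain. In *AZF1* MoBY 108 fell, against a median loss effect of 0.01 that became -0.04 after rescaling and 0 members called in *azf1Δ* (limma, 20 at an unadjusted p under 0.05). Opposed members numbered 34, or 16 after rescaling and 24 without the variance trend. Among them *RPL9A* stood at 39.7 and 35.5 RPKM in *AZF1* MoBY, against 73.0 and 75.6 RPKM in MoBY control, and at 118 and 124 RPKM in *azf1Δ*, against 113 and 117 RPKM in WT, with a difference of -1.06 ± 0.12 (SE, limma, adjusted p = 0.00225). The count of 69 was 26 without *AZF1* MoBY replicate B, 43 without *azf1Δ* replicate A, 44 without *AZF1* MoBY replicate A and 45 without WT replicate B. tRNA synthetases, which charge tRNA with amino acids, had 11 of 20 called, all more negative, with medians of -0.50 for gain and -0.02 for loss. *CDC60*, the leucine enzyme, differed by -0.78 ± 0.12 (SE, limma, adjusted p = 0.00566). The synthetase count was 4 without *azf1Δ* replicate A, 5 without either *AZF1* MoBY library and 6 without *azf1Δ* or WT replicate B. Glycolytic and fermentation genes had 8 of 25 called, all more negative, with medians of -0.51 for gain and -0.10 for loss, *FBA1*, aldolase, being at 1144 and 1160.1 RPKM in *AZF1* MoBY, against 2048 and 2062 RPKM in MoBY control, and at 3148 and 3214 RPKM in *azf1Δ*, against 3373 and 3420.5 RPKM in WT. Their count was 3 without either *AZF1* MoBY library or *azf1Δ* replicate B, 4 without *azf1Δ* replicate A and 5 without WT replicate B or after rescaling.

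Chaperone and heat shock genes had 16 of 30 called, all more positive with gain, with medians of 0.76 for gain and 0.09 for loss. *SSA4*, an inducible Hsp70, stood at 744 and 755 RPKM in *AZF1* MoBY, against 322 and 380.0 RPKM in MoBY control, and at 4.99 and 5.78 RPKM in *azf1Δ*, against 5.17 and 5.35 RPKM in WT. The loss pair overlapped and the difference of 1.07 ± 0.16 (SE, limma, adjusted p = 0.00495) came from the gain arm. *SIS1*, the Hsp40 partner of Hsp70, was opposed, with a loss effect of -0.19 and a difference of 1.02 ± 0.13 (SE, limma, adjusted p = 0.00324). The count of 16 was 7 without either *AZF1* MoBY library, 9 without *azf1Δ* or WT replicate B and 10 without *azf1Δ* replicate A. Multidrug resistance genes had 10 of 18 called, all more positive, and at least 8 whichever library was left out. *PDR5*, the main drug efflux pump, stood at 1209 and 1243 RPKM in *AZF1* MoBY, against 755 and 739 RPKM in MoBY control, and at 439.6 and 422 RPKM in *azf1Δ*, against 545 and 488 RPKM in WT, without overlap in either pair, and differed by 0.98 ± 0.12 (SE, limma, adjusted p = 0.00266). The *PDR5* loss effect was not called. *RTA1*, of a family of lipid-translocating exporters, and *TPO1*, a polyamine exporter, differed by 1.14 ± 0.13 and 0.99 ± 0.14 (SE, limma, adjusted p = 0.00255 and 0.00436). Cell wall genes had 12 of 44 called, all more positive, and 1 opposed, with *CWP1*, a mannoprotein gene (2.22 ± 0.35), and *CHS1*, a chitin synthase gene (1.12 ± 0.13, SE, limma, adjusted p = 0.00656 and 0.00255), in front. That count was 6 without either *AZF1* MoBY library. The purine and one-carbon list had 8 of 22 called, 7 more positive with gain, among them *IMD4*, whose model overlaps another so that its reads are uncertain, and *ADE12*, both of purine synthesis and opposed, and *GCV1* of glycine cleavage, which was not and rose by 0.96 in *AZF1* MoBY. The *ADE12* call was lost without *AZF1* MoBY, *azf1Δ* or WT replicate B (0.73 to 0.98 over the 8 sets) and that of *GCV1* without either *AZF1* MoBY library (0.63 to 0.85). The list had 2 called when *AZF1* MoBY replicate B was left out, 3 without *AZF1* MoBY replicate A or *azf1Δ* replicate B, 4 without WT replicate B and 5 without *azf1Δ* replicate A or WT replicate A.

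These lists also differed between MoBY control and WT, whose MoBY control libraries the gain arm shares. The medians there were -0.58 for ribosomal proteins, -0.64 for glycolysis, 1.87 for chaperones, 0.68 for multidrug resistance and 0.39 for the cell wall, beside gain medians of -0.70, -0.51, 0.76, 0.52 and 0.30. The part of plasmid and G418 in the gain effects was not tested.

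Smaller lists held single opposed genes in both directions. Of 11 pentose phosphate pathway genes 5 had a called difference (45.5%), 2 more positive and 3 more negative with gain. That count was 2 without either *AZF1* MoBY library, *azf1Δ* replicate B or WT replicate B. It was 3 after rescaling and without *azf1Δ* replicate A, WT replicate A or MoBY control replicate B. *SOL3*, a 6-phosphogluconolactonase gene, stood at 317 and 296 RPKM in *AZF1* MoBY, against 201 and 209 RPKM in MoBY control, and at 145 and 139 RPKM in *azf1Δ*, against 170.1 and 168 RPKM in WT, without overlap in either pair, and differed by 0.83 ± 0.11 (SE, limma, adjusted p = 0.00324). The *SOL3* loss effect was not called. *GND1*, the next enzyme of the pathway, fell in *AZF1* MoBY, at 276 and 276 RPKM in *AZF1* MoBY, against 508 and 526 RPKM in MoBY control, while its loss effect was -0.16, and it differed by -0.75 ± 0.11 (SE, limma, adjusted p = 0.00437).

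Of 27 genes of sulfate assimilation and methionine 6 had a called difference (22.2%), and 3 were opposed. The count was 2 without *AZF1* MoBY replicate B and 3 without *azf1Δ* replicate B. *SUL1*, a sulfate permease, stood at 20.1 and 17.3 RPKM in *AZF1* MoBY, against 38.9 and 36.5 RPKM in MoBY control, and at 36.0 and 36.0 RPKM in *azf1Δ*, against 33.6 and 30.5 RPKM in WT. It lay lowest in *AZF1* MoBY and differed by -1.19 ± 0.16 (SE, limma, adjusted p = 0.00349). *SAM1*, an S-adenosylmethionine synthetase whose close relative *SAM2* may share reads, went the other way, at 140.1 and 145 RPKM in *AZF1* MoBY, against 75.1 and 99.7 RPKM in MoBY control, and at 50.6 and 51.6 RPKM in *azf1Δ*, against 68.6 and 66.3 RPKM in WT, and differed by 1.12 ± 0.18 (SE, limma, adjusted p = 0.00628). *DAN4*, an anaerobically induced cell wall gene, rose on loss, at 43.4 and 39.7 RPKM in *azf1Δ*, against 27.3 and 21.6 RPKM in WT, and had a gain effect of -0.35, with a difference of -1.13 ± 0.17 (SE, limma, adjusted p = 0.00581). Its list of *PAU*, *DAN* and *TIR* genes went both ways. Of 21 members 5 had a called difference (23.8%), 3 more negative and 2 more positive with gain, and all 5 were opposed. Differences over the list ran from -1.495 to 2.465, and 13 members have near-identical relatives, so their reads are uncertain. The list's count was 2 without *AZF1* MoBY replicate A or without the variance trend. *SUT1*, an activator of sterol uptake in anaerobic cells, differed by -0.92 ± 0.17 (SE, limma, adjusted p = 0.0117). Histone genes had 2 of 8 called (25%) and the hypoxic list 4 of 17 (23.5%), beside 14% over all genes tested, all more negative with gain. Each list had 1 opposed member (12.5% and 5.88%, beside 7.4% over all genes tested). The called histone count ran from 0 (without *AZF1* MoBY replicate B or *azf1Δ* replicate A, or without the trend) to 4 (without MoBY control replicate A), and the called hypoxic count was 1 without either *AZF1* MoBY or either *azf1Δ* library.

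**Figure D5:**
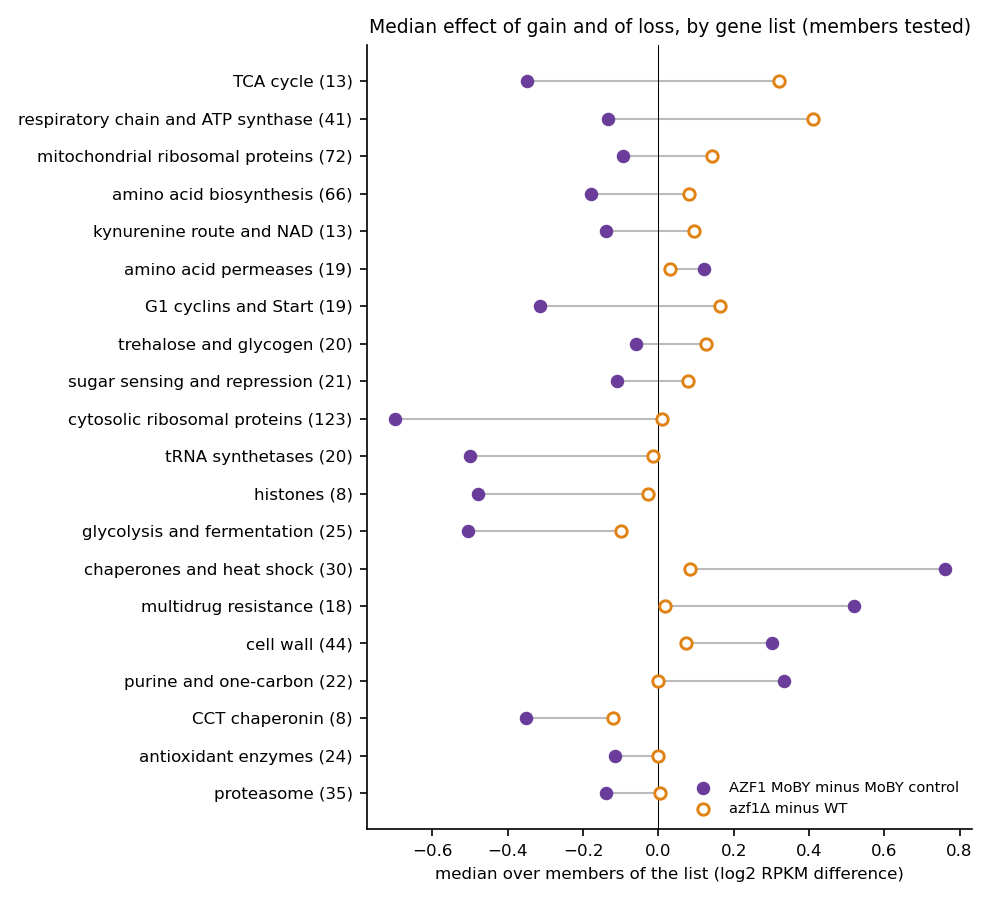
Median log2 effect of gain (*AZF1* MoBY minus MoBY control, filled) and of loss (*azf1Δ* minus WT, open) over the tested members of 20 lists, whose number stands in parentheses. The medians lie on opposite sides of 0 for the TCA cycle (-0.35 and 0.32) and the respiratory chain (-0.14 and 0.41), whereas for ribosomal proteins (-0.70 and 0.01) and chaperones (0.76 and 0.09) the loss median is near 0.

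Few genes differed through the loss arm. The glycerol 3-phosphatases *GPP1* and *GPP2*, which make glycerol, were chosen after their values had been seen. *GPP1* stood at 79.3 and 68.6 RPKM in *azf1Δ*, against 138 and 141 RPKM in WT, and at 101 and 97.0 RPKM in *AZF1* MoBY, against 87.4 and 109 RPKM in MoBY control, with overlap, and differed by 0.94 ± 0.17 (SE, limma, adjusted p = 0.00963). *GPP2* fell likewise in *azf1Δ*, by 0.84 on the log2 scale, and differed by 0.72 ± 0.15 (SE, limma, adjusted p = 0.0173), a call lost without either *AZF1* MoBY or either *azf1Δ* library (0.57 to 0.87 over the 8 sets). *FAA1*, an acyl-CoA synthetase gene also chosen after its values had been seen, was opposed with unequal arms, at 7.67 and 5.82 RPKM in *AZF1* MoBY, against 5.78 and 4.89 RPKM in MoBY control, and at 6.15 and 3.84 RPKM in *azf1Δ*, against 15.6 and 27.1 RPKM in WT, with a difference of 2.41 ± 0.45 (SE, limma, adjusted p = 0.011). Its gain effect of 0.33 was not called, and its WT libraries stood above the other 6, so the loss effect of -2.08 rests on a high WT level. *TAL1*, transaldolase of the pentose phosphate pathway, fell in both arms and more with gain, by 0.79 on the log2 scale for gain and by 0.37 for loss. It differed by -0.42 ± 0.10 (SE, limma, adjusted p = 0.0281), a call lost without either *AZF1* MoBY, either *azf1Δ* or either WT library (-0.46 to -0.38 over the 8 sets). The strains of the study also express an engineered *S. cerevisiae* transaldolase, so reads of the native and engineered copies may be counted together. *PsXyl3*, the engineered xylulokinase, was opposed, at 1098 and 1060.1 RPKM in *AZF1* MoBY, against 630.4 and 605 RPKM in MoBY control, and at 271 and 259.6 RPKM in *azf1Δ*, against 298 and 302 RPKM in WT, with a difference of 0.99 ± 0.10 (SE, limma, adjusted p = 0.0018). Most of that difference lay in the gain arm, where the effect of 0.805 was called, while the loss effect of -0.18 was not. MoBY control exceeded WT by 1.04 on the log2 scale for *PsXyl3*.

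Of the remaining regulators, the difference was not called for *RPN4*, *HAC1*, *HSF1*, *UPC2* and *ROX1*, which act on the proteasome, the unfolded protein response, heat shock, sterol and hypoxic genes. Their differences ran from -0.51 (*HSF1*) to 0.30 (*ROX1*) on the log2 scale (limma, adjusted p from 0.151 to 0.84).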

How the data were processed

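RNA from *Saccharomyces cerevisiae* cultures was depleted of rRNA and sequenced with a strand-specific kit, in 4 groups of 2 libraries. The deposited table holds log2 RPKM that the authors computed: reads were trimmed, mapped to the Y22-3 genome and counted per gene, and the submitters' processing notes name Trimmomatic 0.3.0, Bowtie2 2.2.2 and HTSeq 0.6.0. The strand setting of the counting is not given in the sources used here. The lowest deposited log2 values equal 1 read, so a gene listed at 1 read may have had none. Between low values the step implied 6190000 to 7140000 reads per library, which limits the precision of genes with few reads.

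The deposited log2 values were fitted in limma 3.58.1 (R 4.3.3) with a variance trend over all 8 libraries (residual degrees of freedom 4), on genes with at least 1 RPKM in at least 2 libraries. Contrasts were the difference of gain and loss, each arm, and MoBY control against WT, with two-sided p-values adjusted after Benjamini and Hochberg over all genes tested and called under 0.05. As no source ties replicates to separate clones, p-values measure the spread between these cultures only.

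Described were the 12 opposed genes per direction whose smaller absolute effect was largest, up to 4 called members with the largest absolute difference in each list whose called share was at least 1.5 times that of all genes or of which at least 25% were opposed, and 16 regulators. Further members are named to complete a list's account, and other genes are marked as chosen after their values were seen. Some genes that the rule or a list would name are not reported here. The members, the 50 lists and the rule were chosen with earlier results of these data known. Gene symbols came from the table and RefSeq (5647 IDs matched), and genes that overlap by 50 bases or share 95% of 100 bases were treated as uncertain. Pseudocounts of 1 and 0.1, no filter, a filter at 5 RPKM, median-ratio rescaling, no variance trend, a replicate block and leaving out each library were the alternatives.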

Additional observations from a re-analysis of the deposited data

How the results depend on the processing

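Called differences numbered 853, opposed genes 399, gain calls 1375 and loss calls 108. Without a variance trend there were 483 called differences, 251 opposed genes and 6 loss calls. With 1 library left out, called differences ranged from 305 to 1087, opposed genes from 162 to 511, gain calls from 622 to 1451 and loss calls from 3 to 157. The cause was not tested. Pseudocounts, filters and rescaling gave 835 to 897 called differences and 373 to 416 opposed genes, 299 of the 373 under rescaling being shared with the deposited scale. Rescaling moved the median difference of all genes to 0.04, against -0.05 as deposited, and left the TCA cycle, respiratory chain, amino acid biosynthesis, G1 and chaperone medians of the difference in their direction. No called result changed sign.

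Same-lettered libraries did not deviate together (correlations of A minus B across genes from -0.09 to 0.02), so the letters were not read as pairs. With the replicate block there were 780 called differences, 360 opposed genes, 1297 gain calls and 67 loss calls. With 2 libraries per group and 4 residual degrees of freedom, a gene that was not called cannot be said to have equal effects.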
